A study of Mus musculus with 9 samples.

Results

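The genes described here encode subunits of the mitochondrial respiratory chain, complexes I to IV, and of ATP synthase, complex V. They were chosen by symbol (mt-Nd, mt-Co, mt-Cytb, mt-Atp, Nduf, Sdha to Sdhd, Uqcr, Cox4 to Cox8 and Atp5), and 98 of the 54456 genes in the count table carried such a symbol after 11 symbols ending in "-ps" were left out. Of these, 13 lie on the mitochondrial chromosome (7 of complex I, 1 of complex III, 3 of complex IV and 2 of complex V). The other 85 are nuclear, with 36 in complex I, 4 in complex II, 8 in complex III, 20 in complex IV and 17 in complex V. Ndufa4 was placed in complex IV, of which its protein is a subunit, whatever its symbol says.

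The data are bulk RNA sequencing of polyadenylated RNA from mouse skin, taken from lesions labelled AA-like in a study whose title names immune-mediated alopecia. The lesions fall into 3 groups of 3 libraries each. One group was treated with microneedles loaded with IL-2+CCL22 (here loaded lesions), another with microneedles that held neither (empty lesions), and the last had no treatment (untreated lesions). The cytokine IL-2 drives T cell growth, and the chemokine CCL22 attracts regulatory T cells. Strain, sex, age, time of sampling and the way the lesions were induced are not stated in the labels, and all groups share the lesion. The labels also do not tie libraries to animals, so a p-value here measures the spread between libraries, which may be technical. In bulk tissue, fewer cells of a type and less RNA per cell cannot be told apart.

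The respiratory chain passes electrons from NADH (through complex I) and succinate (through complex II) to oxygen, by way of complexes III and IV, and complexes I, III and IV pump protons across the inner mitochondrial membrane. ATP synthase uses that gradient to make ATP. Mitochondrial DNA encodes a few core subunits of complexes I, III, IV and V, transcribed as long precursors that are cut at the transfer RNAs, whereas all of complex II and most other subunits are nuclear and imported. In skin, mitochondrial respiration is known to be needed for the growth of the hair follicle, and several subunits of complex IV have muscle, lung or testis forms that replace the common one.

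Each library held between 85962714 and 96740589 counts, and 26081 genes had enough counts to be tested. The tissue label was checked against keratinocyte and hair markers. Krt14, the basal keratin, averaged 3581, 4064 and 7223 CPM (counts per 1e6 of library size scaled by its TMM factor) in loaded, empty and untreated lesions, and Krt71, a keratin of the inner root sheath, 8878, 5198 and 8116.3 CPM. Sbsn was under 1 CPM. The TMM factors were 1.04 in all 3 loaded libraries, 1.01 to 1.03 in the empty ones and 0.930 to 0.959 in the untreated ones. Untreated replicate 1 stood above the other untreated libraries for most nuclear members, and its effect is given with those results. Fold changes are log2 values, and a member is said to rise or fall where its edgeR adjusted p over all tested genes is under 0.05.

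The mitochondrial genes are packed so tightly that neighbours share bases, and those bases are shown. Reads there cannot be given to either gene alone, unless the genes lie on opposite strands and strand was used. The coordinates are those of the table (mm39) and the sequences come from GENCODE M21 transcripts, in which 13 of 13 mitochondrial genes had the same length as in the table. The end of mt-Atp8 and the start of mt-Atp6 share 43 bases at chrM:7927-7969. The end of mt-Nd5 and the end of mt-Nd6, which lies on the other strand, share 14 bases at chrM:13552-13565.
mt-Atp8 and mt-Atp6: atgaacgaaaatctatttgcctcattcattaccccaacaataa
mt-Nd5 and mt-Nd6: ttaatctcgagtaa
The first run is read on the strand of both genes and the second on the strand of mt-Nd5. A shared stretch of 7 bases joins mt-Nd4l to mt-Nd4. How reads in both genes were counted, and whether strand was used, is not stated in the labels.

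A run of nuclear pseudogenes on chromosome 1 (24650616 to 24655278 in the table) carries near-identical copies of part of the mitochondrial chromosome. In GENCODE M21 transcripts, mt-Co2, mt-Co3, mt-Atp6 and mt-Nd4l aligned to Gm28661, Gm28437, Gm10925 and Gm10222 with 100% identity over at least 99.0% of their length. For mt-Nd3 the identity with Gm28438 was 99.7%. Part of mt-Nd4 (876 of 1378 bases, Gm28439) and part of mt-Co1 (483 of 1545 bases, Gm29216) had such a copy as well. The best copies of mt-Cytb (92.9%), mt-Nd6 (93.6%), mt-Nd5 (95.2%) and mt-Nd2 (96.7%) were further from the original, and mt-Nd1 aligned to no other transcript. The pseudogene rows were picked by this alignment and not by the rule for members. How reads matching both places were counted is not stated, so the values of the genes with copies are uncertain.

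The respiratory chain genes as a whole took a smaller share of the counts with either device than in untreated lesions. The 13 mitochondrial genes held 3.63%, 3.64% and 3.74% of all counts in the loaded libraries, 3.19%, 3.23% and 3.30% in the empty ones and 4.517%, 4.396% and 4.373% in the untreated ones. The groups did not overlap, with the untreated libraries highest and the empty ones lowest. The 85 nuclear genes held 0.764%, 0.784% and 0.779% in the loaded libraries, 0.728%, 0.763% and 0.754% in the empty ones and 0.923%, 0.863% and 0.852% in the untreated ones. Here the untreated libraries were again highest, and the device groups nearly met, at 0.764% in the lowest loaded library and 0.763% in the highest empty one. The summed mitochondrial count was 4.73 ± 0.08 times the nuclear one in loaded lesions, 4.33 ± 0.08 times in empty and 5.04 ± 0.13 times in untreated lesions (SD, n = 3 libraries each). These sums were not tested.

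**Figure D1:**
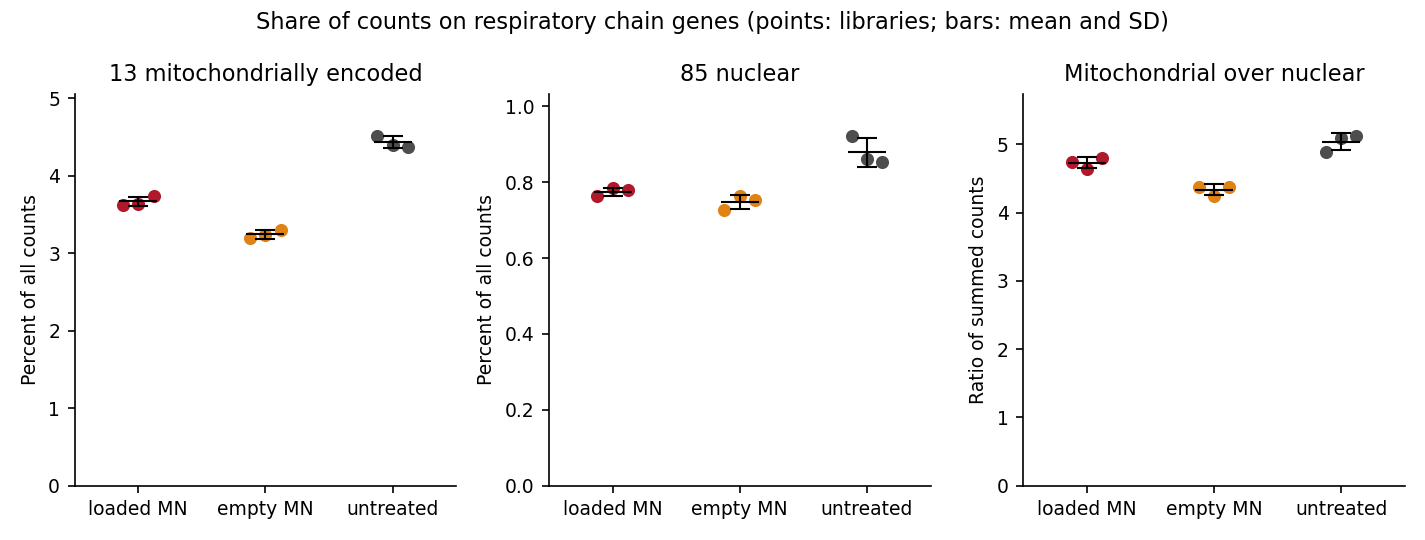
Share of all counts on the 13 mitochondrial genes (left), on the 85 nuclear genes (middle), and the ratio of the summed counts (right), by library (points), with mean and SD over 3 libraries (bars). Untreated libraries lie highest in all 3 panels, and empty-device libraries lie lowest for the mitochondrial share (3.19% to 3.30%).

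Among the 13 mitochondrial genes, loaded against untreated, 10 fell, none rose and 3 did not pass the test (edgeR quasi-likelihood test, adjusted p under 0.05). Over all tested genes, 23.3% fell and 19.0% rose in that comparison. The median log2 fold change of the 13 was -0.37, against -0.014 for all tested genes. Empty against untreated, 12 fell, none rose and mt-Nd4l did not pass, with a median of -0.55, where 28.1% of all tested genes fell, 20.2% rose and the median was -0.016. Both comparisons use the same untreated libraries. In neither did the median change sign under any scaling tried. With library size in place of TMM factors, the mitochondrial medians were -0.24 (loaded) and -0.45 (empty), while the medians of all tested genes moved to 0.12 and 0.09.

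The 7 mitochondrial subunits of complex I form the membrane arm through which protons are pumped. mt-Nd1 read 4619, 4667 and 4826 CPM in loaded lesions, 4159, 4302 and 4253 CPM in empty ones and 6295, 6007 and 5839 CPM in untreated ones. It fell in loaded lesions (log2 fold change -0.36, SE 0.038, edgeR adjusted p = 6.30e-09) and in empty ones (-0.51, SE 0.038, edgeR adjusted p = 3.39e-12), and neither device group reached the untreated one. The longest of them, mt-Nd5, read 4656, 4747 and 4774 CPM in loaded, 4212, 4235 and 4273 CPM in empty and 6772, 6519 and 6383 CPM in untreated lesions. Its log2 fold changes were -0.47 (loaded) and -0.63 (empty), with no overlap between any groups. For mt-Nd2 and mt-Nd4 the loaded and empty devices were close, at means of 2645 and 2538 CPM for mt-Nd2 and 2486 and 2378 CPM for mt-Nd4, against 3563 and 3268 CPM in untreated lesions. Both fell with either device, at log2 fold changes between -0.49 and -0.39.

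mt-Nd6 is the only protein gene of the light strand, and it showed the widest spread of the 13 between the groups. It read 126, 124 and 123 CPM in loaded, 86.3, 88.5 and 90.4 CPM in empty and 171, 171 and 168 CPM in untreated lesions. The groups lay far apart relative to their spread (SD of 1.7 to 2.1 CPM, n = 3 each). The log2 fold change was -0.46 ± 0.031 SE in loaded lesions (edgeR adjusted p = 1.52e-12) and -0.95 ± 0.031 with the empty one (edgeR adjusted p = 1.34e-18). If reads were counted without strand, mt-Nd6 also takes reads from the heavy-strand transcripts across it, and the strand setting is not given.

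mt-Nd3 and mt-Nd4l, the smallest of the complex I genes, rest on uncertain counts. mt-Nd3 averaged 37.8 ± 2.4 CPM in loaded, 34.3 ± 1.7 CPM in empty and 47.3 ± 7.4 CPM in untreated lesions (SD, n = 3). It fell with the empty device (log2 fold change -0.46, edgeR adjusted p = 0.0148) and did not pass with the loaded one (-0.32, edgeR adjusted p = 0.0658), although it passed there in 6 alternatives, among them without untreated replicate 1 (-0.19) or 3 (-0.40). mt-Nd4l had 7992, 14709 and 8285 counts in loaded, 6915, 7206 and 8144 in empty and 9949, 9215 and 8964 in untreated lesions. Loaded replicate 2 stood far above every other library, and mt-Nd4l passed in no comparison with it in the robust fit. Without that library mt-Nd4l fell with the loaded device (log2 fold change -0.32, edgeR adjusted p = 0.00342), against 0.03 with it. Its nuclear copy Gm10222 had 6333 counts in empty replicate 3 and 708 to 1027 in the other 8 libraries, and the source of either value was not tested.

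mt-Cytb, the only mitochondrial subunit of complex III and the site of quinone oxidation, was among the genes with no near-identical copy. It read 5889.9, 5996 and 6105 CPM in loaded, 5235, 5379 and 5381 CPM in empty and 8441, 7945 and 7779.5 CPM in untreated lesions. It was lower with either device in every library, at log2 fold changes of -0.43 ± 0.038 SE (loaded, edgeR adjusted p = 4.22e-10) and -0.595 ± 0.038 (empty, edgeR adjusted p = 2.23e-13).

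The mitochondrial genes of complex IV encode its catalytic core. mt-Co1 was the highest member, at 13121, 13012 and 13533 CPM in loaded, 11747, 11898 and 11952 CPM in empty and 17927, 17094 and 17141 CPM in untreated lesions. The 3 groups did not overlap, with log2 fold changes of -0.395 ± 0.038 SE (loaded, edgeR adjusted p = 1.46e-09) and -0.55 ± 0.038 (empty, edgeR adjusted p = 9.14e-13). mt-Co2 (-0.26 and -0.49) and mt-Co3 (-0.36 and -0.598) fell with both devices in the same order. The nuclear copy of mt-Co3, Gm28437, moved with it, at log2 fold changes of -0.44 and -0.66.

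In complex V, mt-Atp6, the channel subunit, read 285.1, 285.2 and 304 CPM in loaded, 235, 248 and 249 CPM in empty and 429, 357 and 343 CPM in untreated lesions. It fell with both devices (log2 fold change -0.37 loaded, edgeR adjusted p = 0.00572, and -0.63 empty, edgeR adjusted p = 2.13e-04). Its partner mt-Atp8, with which it shares the 43 bases above, fell with the empty device (-0.62, edgeR adjusted p = 0.00292). With the loaded device mt-Atp8 stood at -0.22 (edgeR adjusted p = 0.157), and loaded replicate 3 at 155 CPM lay above untreated replicate 3 at 140.2 CPM. The copy of mt-Atp6, Gm10925, had 46663 counts in untreated replicate 2 and 10688 to 19801 in the other libraries.

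**Figure D2:**
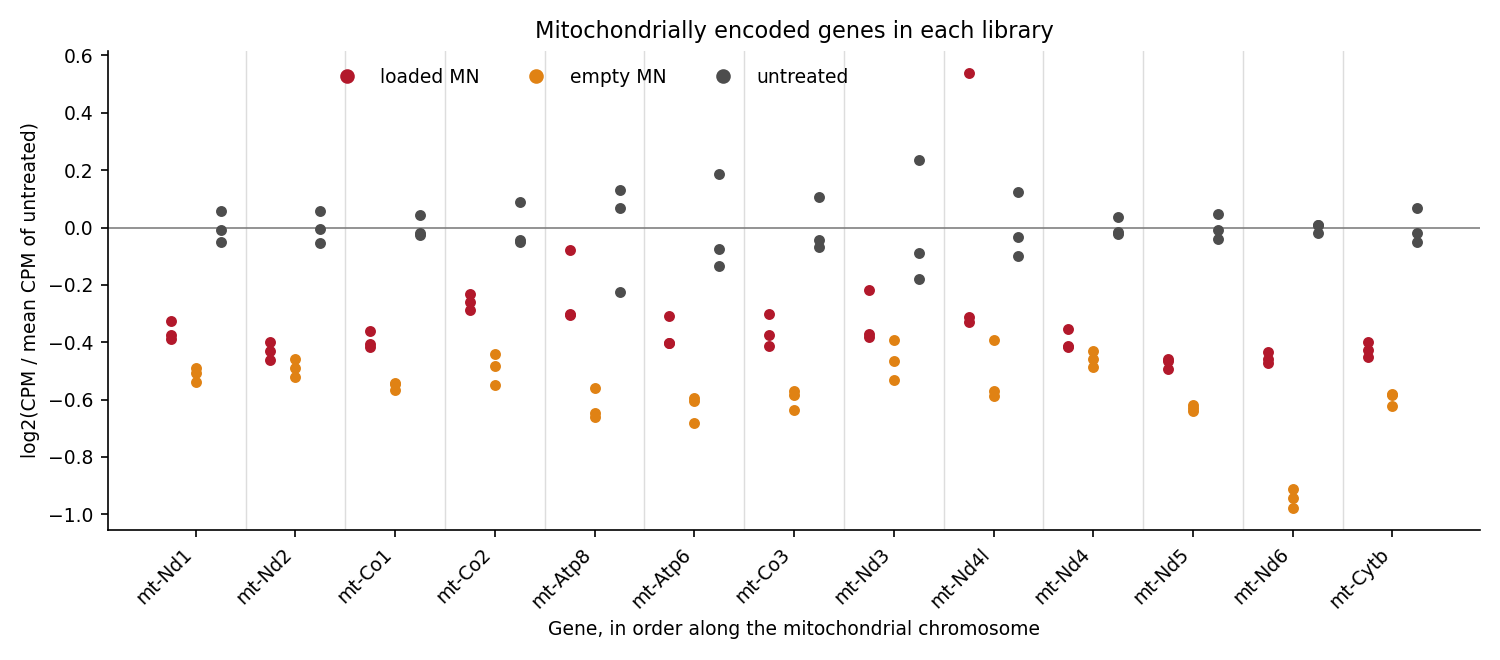
Level of each mitochondrial gene in each library, as log2 of CPM over the mean CPM of the untreated libraries, with genes in order along the mitochondrial chromosome. Loaded-device points lie between empty-device and untreated ones for most genes, mt-Nd6 spreads the groups most, and loaded replicate 2 stands alone for mt-Nd4l.

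The mitochondrial genes have no introns, so their levels were also taken per length. In loaded, empty and untreated lesions mt-Co1 stood at 8558, 7680.0 and 11254 CPM per kb. In the same order mt-Cytb stood at 5242, 4660.4 and 7041 and mt-Nd1 at 4915, 4428 and 6319. mt-Co2 stood at 655, 558 and 784 CPM per kb, mt-Co3 at 521, 442 and 669, mt-Atp6 at 428, 358 and 553 and mt-Nd3 at 109, 98.6 and 136. These last 4 have a near-identical nuclear copy over nearly their whole length, whereas mt-Cytb and mt-Nd1 have none. Neither the part of the copies in these levels nor the capture of each RNA as polyadenylated was tested. The genes can therefore not be ranked by these levels. mt-Nd6, with no such copy, was at 239, 170.3 and 328 CPM per kb. The ribosomal RNAs of the mitochondrial chromosome, which are not members, also fell with both devices. mt-Rnr1 averaged 477, 408 and 649.9 CPM in loaded, empty and untreated lesions (log2 fold change -0.45 loaded and -0.67 empty), and mt-Rnr2 1029, 793 and 1318 CPM (-0.36 and -0.73).

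Between the devices, loaded against empty, 9 of the 13 mitochondrial genes were higher with the load, none was lower and 4 did not pass, at a median log2 fold change of 0.17. Over all tested genes 22.9% were higher and 18.5% lower, with a median of 0.015. The sizes ran from 0.15 for mt-Nd1 (edgeR adjusted p = 0.00159) through 0.16 for mt-Co1 (edgeR adjusted p = 0.00119) and 0.17 for mt-Cytb (edgeR adjusted p = 5.43e-04) to 0.49 ± 0.031 SE for mt-Nd6 (edgeR adjusted p = 2.77e-13). The 4 that did not pass were mt-Nd2, mt-Nd3, mt-Nd4 and mt-Nd4l. The calls of mt-Atp6 (0.26) and mt-Atp8 (0.40) were lost without loaded replicate 3 or any empty library. The mean of the loaded lesions lay between the other 2 groups for 12 of 13 genes, and for 51 of the 83 tested nuclear members. The share of all tested genes with that order was not taken. With a skeletal muscle score as a covariate only mt-Nd6 of the 13 passed (log2 fold change 0.57), while the median was 0.30. Of all tested genes 732 were then higher and 939 lower, against 5971 and 4834 without the covariate. The muscle markers behind that score do not overlap between the groups, as given with the muscle forms of complex IV, so muscle and device cannot be told apart here.

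The nuclear members also mostly fell. Of the 85, 83 had enough counts to be tested. Cox8c had at most 3 counts in a library, and Ndufa13 had none in any library. The whole span of Ndufa13 lies within another row of the table, Yjefn3. Loaded against untreated, 65 fell, 5 rose and 13 did not pass, at a median of -0.34. Empty against untreated, 62 fell, 9 rose and 12 did not pass, at a median of -0.38. These counts stand against 23.3% and 28.1% of all tested genes that fell, and 19.0% and 20.2% that rose. In 60 of the 83 the fall passed with both devices, which share their untreated libraries, and 3 genes (Cox4i1, Ndufa8 and Uqcrc1) rose with both. The shares of all tested genes that fell or rose with both devices were not taken, so these joint counts have no such value beside them. Without untreated replicate 1 the medians were -0.31 (loaded) and -0.30 (empty). The 5 that rose with the load were Cox6b2, Cox4i2, Cox4i1, Ndufa8 and Uqcrc1, and 3 rose without loaded replicate 2.

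**Figure D3:**
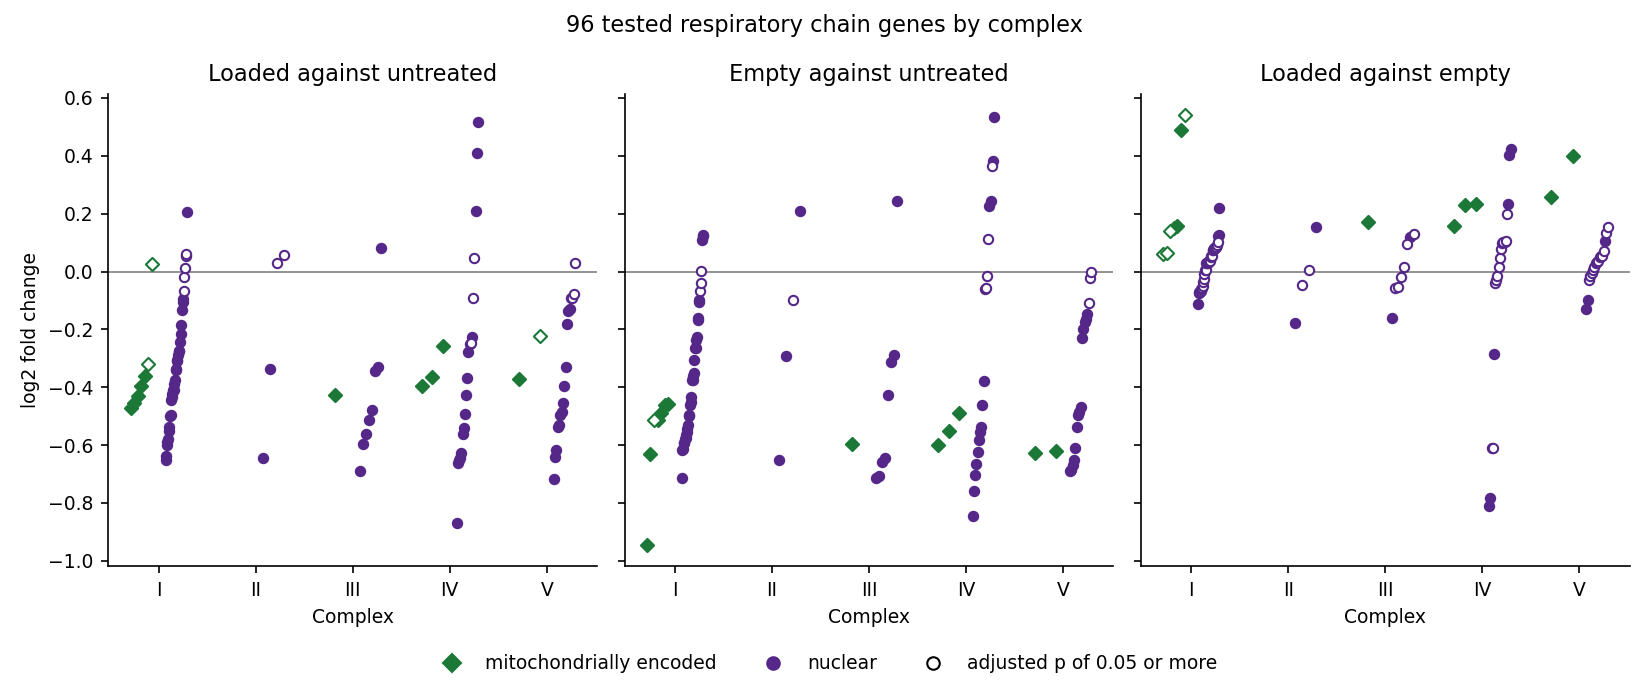
Log2 fold change of the 96 tested genes by complex in the 3 comparisons (diamonds, mitochondrially encoded; circles, nuclear; open symbols, adjusted p of 0.05 or more). Most filled symbols lie under 0 in the left and middle panels, while in the right panel the mitochondrial genes lie above 0 and most nuclear ones are open and near 0.

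Transcript length was set beside these counts because short transcripts moved with the groups. Among other genes of at least 1 CPM, the median log2 fold change with the loaded device was -0.06 for transcripts up to 500 bases and -0.07 from 500 to 1000, against 0.035 from 2000 to 5000 and 0.10 above 5000. Nuclear members of those lengths had medians of -0.46 (14 genes up to 500 bases), -0.335 (48 genes from 500 to 1000) and -0.31 (3 genes from 2000 to 5000). Of the 48 members from 500 to 1000 bases, 36 fell, where 43.0% of other genes of that length did. With the empty device 34 of the 48 fell, against 50.2% of the others. The part of length in the members' fold changes was not tested further.

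In nuclear complex I, 29 of 35 tested genes fell with the loaded device, 1 rose, and the median was -0.34. With the empty device 29 fell and 3 rose. Of all tested genes, 23.3% fell and 19.0% rose with the loaded device, and 28.1% fell and 20.2% rose with the empty one. Ndufs8, an iron-sulfur subunit of the peripheral arm, read 55.0, 56.9 and 55.0 CPM in loaded, 52.4, 53.2 and 52.6 CPM in empty and 96.1, 84.2 and 79.2 CPM in untreated lesions. Every device library was well below every untreated one (log2 fold change -0.64 loaded, edgeR adjusted p = 1.61e-07, and -0.71 empty, edgeR adjusted p = 2.60e-08). Ndufs1, the largest subunit, which holds iron-sulfur clusters, fell with both devices (-0.41 loaded and -0.497 empty), but other rows of the table overlap 44.5% of its span. Ndufa9, an accessory subunit at the joint of the arms, averaged 84.8 ± 0.4 CPM in loaded, 78.0 ± 1.8 CPM in empty and 113 ± 5.4 CPM in untreated lesions (SD, n = 3), with no overlap between groups. Loaded against empty, Ndufa9, Ndufc2 and Ndufa7 were the 3 nuclear complex I genes that were higher (0.12, 0.22 and 0.13). Of all tested genes, 22.9% were higher there. The exceptions were chosen after their values were seen. Ndufa8 rose with the loaded device (60.2, 61.1 and 59.8 CPM, against 54.5, 53.3 and 49.3 CPM in untreated lesions, log2 fold change 0.205 and edgeR adjusted p = 2.76e-05). Ndufs7, a core iron-sulfur subunit near the quinone site, rose with the empty device (0.125, edgeR adjusted p = 0.00495).

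Complex II has only 4 subunits, and they went different ways. Sdha, the flavoprotein that oxidises succinate, read 168, 169 and 171 CPM in loaded, 170.2, 176 and 179 CPM in empty and 219.8, 213 and 209 CPM in untreated lesions. It fell with both devices (log2 fold change -0.34 ± 0.032 SE, edgeR adjusted p = 1.23e-09, and -0.29 ± 0.032, edgeR adjusted p = 9.61e-09). Sdhd, a membrane anchor, fell further, to 51.4, 50.5 and 50.6 CPM with the load and 49.3, 51.7 and 51.0 CPM without it, against 84.8, 78.1 and 75.7 CPM in untreated lesions (log2 fold change -0.65 with either device, edgeR adjusted p = 5.38e-14 loaded and 1.87e-14 empty). The other anchor, Sdhc, stood at 45.8 ± 0.5 CPM in loaded, 51.8 ± 2.6 CPM in empty and 44.9 ± 1.7 CPM in untreated lesions (SD, n = 3). It rose with the empty device (0.21, edgeR adjusted p = 3.67e-05), a call lost with the muscle covariate at 0.09, and had a log2 fold change of 0.03 with the loaded one (edgeR adjusted p = 0.583). Sdhb, the iron-sulfur subunit, passed against untreated lesions with neither device (0.06 and -0.10).

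In complex III, 7 of the 8 nuclear genes fell with each device, where 23.3% (loaded) and 28.1% (empty) of all tested genes did. Uqcrc2, a core subunit, read 139.9, 144 and 143 CPM in loaded, 129, 132 and 134 CPM in empty and 229, 211 and 208 CPM in untreated lesions. Its groups did not overlap (log2 fold change -0.596 ± 0.035 SE loaded, edgeR adjusted p = 9.31e-14, and -0.71 ± 0.035 empty, edgeR adjusted p = 1.25e-15). Its partner core subunit Uqcrc1 was the exception. It stood at 185, 183 and 185 CPM in loaded, 199.5, 212 and 206 CPM in empty and 171, 177 and 174 CPM in untreated lesions. It rose with the empty device (0.24, edgeR adjusted p = 2.41e-07). With the loaded one its call (0.08, edgeR adjusted p = 0.0415) was lost with 8 of the 21 alternatives, among them leaving out any loaded library. Uqcrh, the hinge protein that binds cytochrome c1, fell most of the complex with the loaded device, at 102, 111 and 105 CPM in loaded, 104, 105 and 105 CPM in empty and 199, 162 and 152 CPM in untreated lesions (-0.69 loaded, edgeR adjusted p = 0.00115, and -0.71 empty, edgeR adjusted p = 8.28e-04). With the muscle covariate Uqcrh stood at -0.75 with the empty device and did not pass. Uqcrfs1, the Rieske iron-sulfur protein, fell with both devices (-0.34 loaded and -0.29 empty).

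Complex IV held the widest range. Of its 19 tested nuclear genes 13 fell and 3 rose with the loaded device, and 10 fell and 4 rose with the empty one. The shares that fell were 68.42% and 52.63%, against 23.3% and 28.1% of all tested genes. The shares that rose (15.79% and 21.05%) are near the 19.0% and 20.2% of all tested genes that rose. Ndufa4 had the lowest log2 fold change of all nuclear members with the loaded device. It read 138, 142 and 146 CPM in loaded, 172, 178 and 169 CPM in empty and 284, 254 and 240.0 CPM in untreated lesions. No groups overlapped, and it fell with both devices (-0.87 ± 0.048 SE loaded, edgeR adjusted p = 1.77e-10, and -0.58 ± 0.048 empty, edgeR adjusted p = 1.46e-08). Loaded against empty, it was lower as well (-0.285, edgeR adjusted p = 1.03e-04), unlike the mitochondrial genes. The small subunits Cox7c (-0.66 loaded and -0.62 empty) and Cox7b (-0.65 and -0.76) fell with both devices too.

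Several complex IV subunits exist in pairs, and the common form and its tissue-restricted partner did not always move together. Cox4i1, the common form of subunit 4, rose with both devices, at 192, 199 and 198.5 CPM in loaded, 191, 208 and 196.5 CPM in empty and 171, 168 and 171 CPM in untreated lesions (0.21 loaded, edgeR adjusted p = 9.95e-06, and 0.22 empty, edgeR adjusted p = 2.21e-06). Its lung form Cox4i2 was near 2 CPM and rose with the loaded device (0.41, edgeR adjusted p = 0.0156), a call that was lost without loaded replicate 2 (0.29) or without untreated replicate 1 (0.28). Cox6b1, the common form, fell with both devices (-0.63 loaded, edgeR adjusted p = 0.00101, and -0.705 empty, edgeR adjusted p = 4.25e-04). Cox6b2, known as a testis form, was low and rose with the loaded device (1.99, 1.92 and 2.11 CPM, against 1.48, 1.375 and 1.35 CPM in untreated lesions, log2 fold change 0.52 and edgeR adjusted p = 9.67e-04). With the muscle covariate neither Cox6b2 with the load (0.46) nor Cox6b1 with the empty device (-0.69) passed. Cox7b2 was near 0.2 CPM and passed in no comparison.

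The muscle forms Cox6a2, Cox7a1 and Cox8b went in opposite directions with the 2 devices. Cox6a2 read 27.98, 30.5 and 30.8 CPM in loaded, 47.8, 51.3 and 57.4 CPM in empty and 42.3, 39.2 and 38.8 CPM in untreated lesions. The groups did not overlap, with a fall in loaded lesions (-0.43, edgeR adjusted p = 1.30e-04) and a rise in empty ones (0.38, edgeR adjusted p = 2.09e-04). Its whole span is shared with another row, Itgad. Cox7a1 read 3.63, 4.31 and 4.197 CPM in loaded, 6.21, 6.98 and 7.69 CPM in empty and 4.87, 4.83 and 4.735 CPM in untreated lesions, again with no overlap (-0.25, edgeR adjusted p = 0.0204, and 0.53, edgeR adjusted p = 2.61e-06). The fall of Cox7a1 was lost without loaded replicate 1 (-0.18) and with library size alone (-0.12). Cox8b fell with the loaded device (-0.37, edgeR adjusted p = 0.00655). Its rise with the empty device (0.24, edgeR adjusted p = 0.0461) was lost in 8 of the 21 alternatives, among them leaving out any empty library. Loaded against empty, all 3 were lower (-0.81, -0.78 and -0.61).

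**Figure D4:**
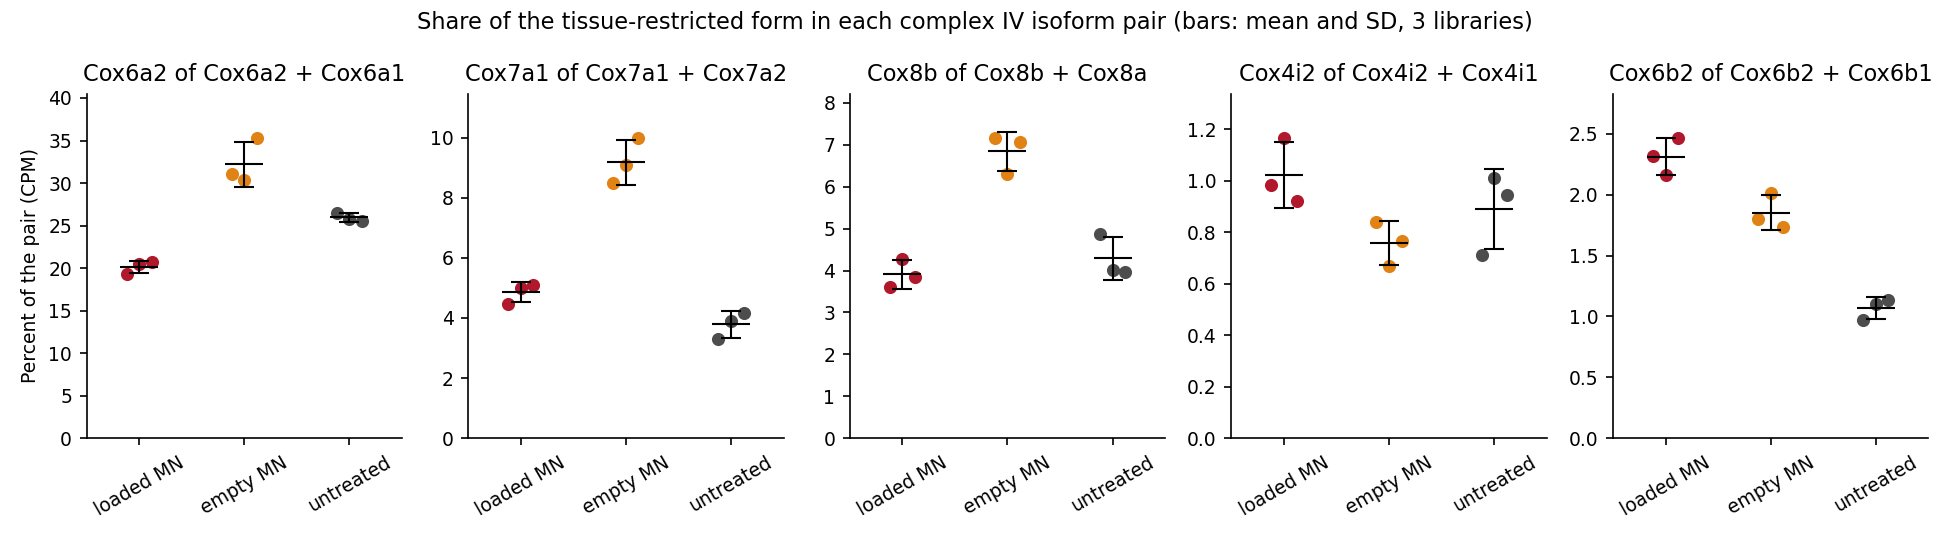
Share of the tissue-restricted form in the summed CPM of 5 isoform pairs of complex IV, by library (points), with mean and SD over 3 libraries (bars). The muscle forms have their highest mean share in empty lesions (32.2% for Cox6a2, 9.18% for Cox7a1 and 6.84% for Cox8b), and Cox6b2 has its highest in loaded lesions (2.31%).

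The shares plotted are of CPM over whole gene spans, so they can be compared between groups and not between genes. The partners Cox6a1, Cox7a2 and Cox8a are the common forms. Cox7a2 fell with both devices (-0.64 and -0.84), so the share of Cox7a1 was higher in both (4.87 ± 0.34% loaded, 9.18 ± 0.75% empty, 3.79 ± 0.44% untreated; SD, n = 3, shares not tested), while Cox7a1 itself stood at -0.25 with the load. Cox6a1 passed against untreated lesions with neither device (0.05 and -0.06), and the share of Cox6a2 was 20.1 ± 0.7% in loaded, 32.2 ± 2.7% in empty and 26.0 ± 0.5% in untreated lesions. Cox8a fell with both (-0.225 and -0.46).

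Skeletal muscle markers moved with these forms. Of 26 markers, 18 fell and 3 rose with the loaded device, where 23.3% and 19.0% of all tested genes did. With the empty one 21 markers rose and 2 fell, where 20.2% and 28.1% of all tested genes did. Their summed level was 11967 to 12664 CPM in loaded, 16736 to 19733 CPM in empty and 13296 to 13671 CPM in untreated libraries, and only Tnnc1 was under 1 CPM. Mb, the oxygen store of muscle, averaged 219, 395 and 299 CPM in loaded, empty and untreated lesions. With a skeletal muscle score as a covariate, none of the calls of Cox6a2 with the empty device (0.05), Cox7a1 (-0.035 loaded and 0.145 empty) and Cox8b (-0.35 and 0.21) passed. The fall of Cox6a2 with the loaded device kept its call in all 21 alternatives, that covariate among them. The summed levels of the markers behind the score do not overlap between the groups, so it cannot tell muscle from device. It also cut the calls over all tested genes. With the empty device they went from 5258 higher and 7339 lower to 2397 and 4004. With the loaded one they went from 4950 and 6074 to 3159 and 4356. Brown fat uses Cox7a1 and Cox8b too, and its marker Ucp1 was at 0.204, 0.226 and 0.185 CPM. Myh4, a fast muscle myosin, went the other way from most markers (1187, 519 and 991 CPM). Without the 3 muscle forms the nuclear share was 0.771%, 0.741% and 0.875% of counts.

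In ATP synthase, 14 of 17 nuclear genes fell with each device and none rose. Of all tested genes, 23.3% fell and 19.0% rose with the loaded device, and 28.1% and 20.2% with the empty one. Atp5j2, a membrane subunit, read 64.1, 70.1 and 67.2 CPM in loaded, 65.1, 72.9 and 67.8 CPM in empty and 123, 106 and 103 CPM in untreated lesions. The device groups overlapped each other and lay far below the untreated one (-0.72 loaded, edgeR adjusted p = 2.40e-05, and -0.69 empty, edgeR adjusted p = 2.36e-05). Atp5pb, of the peripheral stalk, fell with both devices (-0.53 and -0.54). Atp5o, also of the stalk, fell too (-0.64 and -0.69), with 97.3% of its span shared with other rows. The catalytic subunit Atp5b had the highest CPM of the nuclear members, at 898, 907 and 918 CPM in loaded, 819, 865 and 847 CPM in empty and 973, 972 and 957.5 CPM in untreated lesions. It fell with the empty device (-0.198, edgeR adjusted p = 1.10e-05), with no overlap and in all 21 alternatives. Its call with the loaded device (-0.09, edgeR adjusted p = 0.0261) turned to 0.04 with library size alone and was lost in 7 other alternatives. The fall of Atp5d, of the central stalk, with the loaded device (-0.13, edgeR adjusted p = 0.00215) became 0.002 with library size alone.

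**Figure D5:**
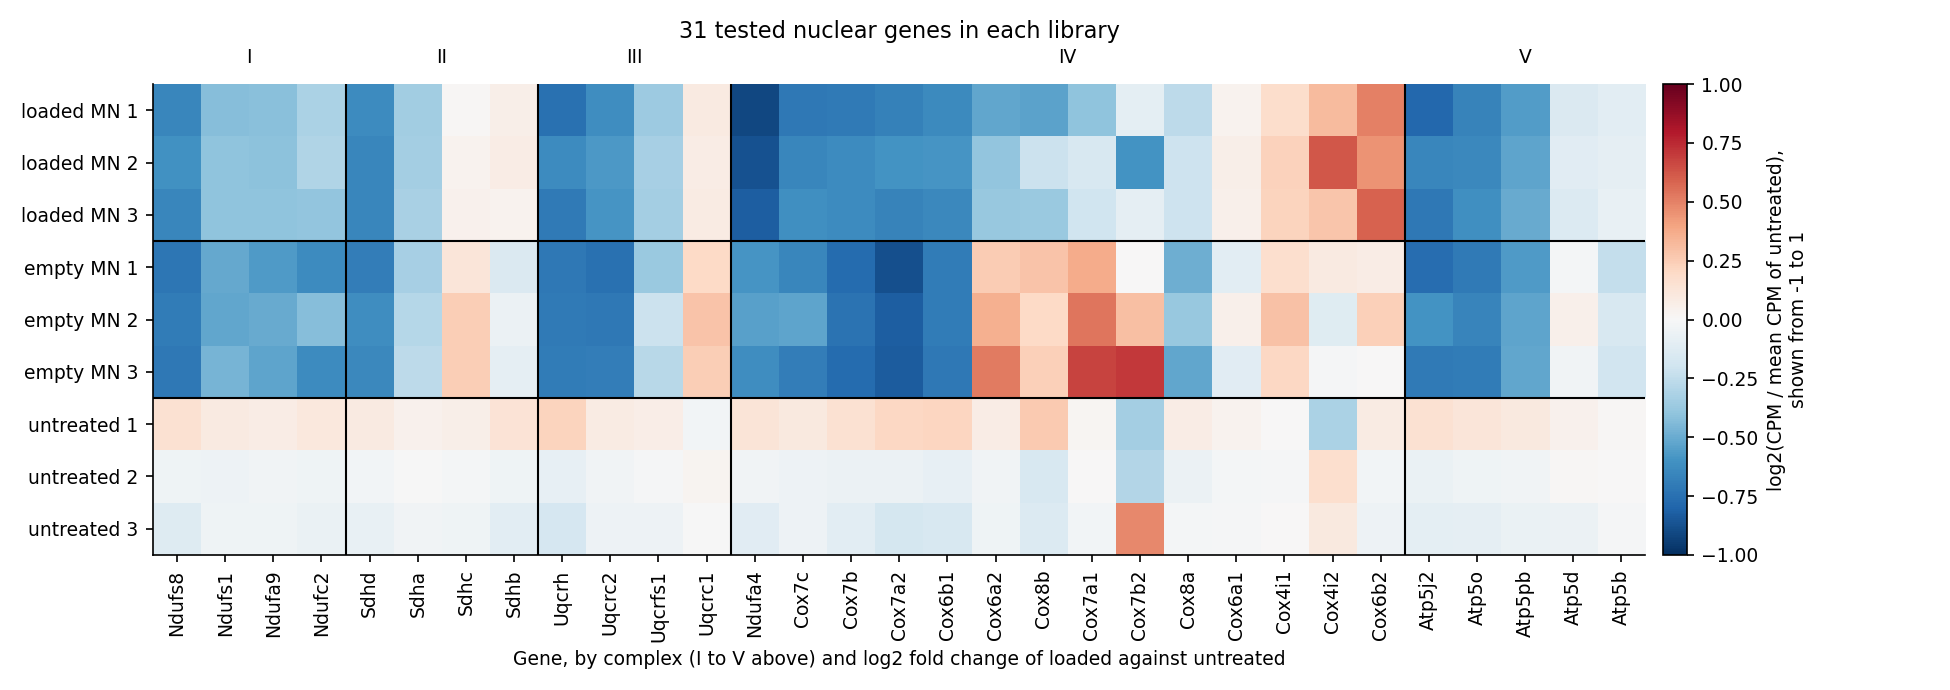
Level of 31 tested nuclear genes, those chosen by the naming rule, in each library (rows, loaded, empty and untreated) as log2 of CPM over the untreated mean, shown from -1 to 1, by complex and by log2 fold change of loaded against untreated. Blue columns (lower) fill most of complexes I, III and V, the muscle forms in complex IV are reddest in the empty-lesion rows, and untreated replicate 1 is redder than the other untreated rows for most genes. The genes of complexes I, III and V were chosen for small p or extreme fold changes in these data, which favours strong colours there.

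Loaded against empty, 10 of the 83 nuclear members were higher, 9 lower and 64 did not pass. That is 12.05% higher and 10.84% lower, against 22.9% and 18.5% of all tested genes. The median of 0.03 turned to -0.02 with upper quartile scaling. The 10 higher ones included Cox8a (0.235, edgeR adjusted p = 9.26e-06), Uqcrc2 (0.12, edgeR adjusted p = 0.00742) and Sdhb (0.15, edgeR adjusted p = 0.0139). The call of Uqcrc2 was lost with upper quartile scaling (0.067) and the stricter filter (0.079), and that of Sdhb without empty replicate 1 (0.134) or 3 (0.129). With the muscle covariate none of the 83 passed. That covariate cut the calls over all tested genes from 5971 higher and 4834 lower to 732 and 939. The 9 lower members included the 3 muscle forms, Ndufa4, Uqcrc1 (-0.16, edgeR adjusted p = 1.24e-04) and Sdhc (-0.18, edgeR adjusted p = 2.98e-04). The number higher was 27 without untreated replicate 1, 17 without untreated replicate 3 and 6 without empty replicate 1 or 3. By complex the summed nuclear levels of the devices were close, at 1973 and 1936 CPM for complex I and 1285 CPM for complex IV in both, against 2455 and 1694 CPM in untreated lesions.

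Promoters of 69 nuclear members were found in RefSeq (GRCm38.p6, each window starting 250 bases before the gene's start). NRF1 and the GABP factor are known regulators of nuclear respiratory chain genes, so both strands were searched for GCGCATGC, a core of the NRF1 motif, and CCGGAAG, a core of the GABPA motif. A gene was a holder if any of its promoters matched. The NRF1 letters stood in promoters of 14.5% of the 69 members and of 3.0% of all 27025 genes. The GABPA letters stood in those of 24.6% and 9.9%. The 27025 genes were taken without regard to their expression in skin. The promoters below are those of the lowest and the highest log2 fold change, loaded against untreated, among the holders of each motif, 100 bases each on the gene's strand, with the matches in capitals. The NRF1 letters stand before Atp5l, which fell, before Ndufa8, which rose, and before Sdhb, which did not pass. The GABPA letters stand before Atp5l and Uqcrh, which both fell.
Atp5l (-0.62, chr9:44920893-44920992, minus strand): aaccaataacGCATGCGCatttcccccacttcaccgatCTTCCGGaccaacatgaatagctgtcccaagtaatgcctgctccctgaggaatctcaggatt
Ndufa8 (0.20, chr2:36049339-36049438, minus strand): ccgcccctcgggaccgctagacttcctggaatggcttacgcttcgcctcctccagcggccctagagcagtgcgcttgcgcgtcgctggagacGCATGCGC
Uqcrh (-0.69, chr4:116075071-116075170, minus strand): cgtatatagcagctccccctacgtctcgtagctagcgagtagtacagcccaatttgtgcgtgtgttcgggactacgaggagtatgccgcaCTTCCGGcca
Sdhb (0.06, chr4:140961171-140961270, plus strand): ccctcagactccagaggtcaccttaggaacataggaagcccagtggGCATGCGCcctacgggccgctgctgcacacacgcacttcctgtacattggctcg
The NRF1 match began 240 bases before the start of Atp5l, 54 before that of Sdhb and 8 before that of Ndufa8. The GABPA match began 212 bases before the start of Atp5l and 10 before that of Uqcrh. Further GABPA matches outside the bases shown lie 24 after the start of Atp5l and 6 after that of Sdhb. Of the 10 holders of the NRF1 letters, 5 fell and 2 rose with the loaded device (median -0.075), and of the 58 tested genes without them 49 fell and 1 rose (-0.36). Of the 17 holders of the GABPA letters 13 fell and none rose (-0.395), and of the 51 without them 41 fell and 3 rose (-0.34). A match is a description of the letters and not of binding.

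The other mitochondrial lists were set beside the members. Of all tested genes, 19.0% rose and 23.3% fell with the load, and 20.2% rose and 28.1% fell with the empty device. Of 45 tested assembly factors for complexes I to V, 8 rose and 23 fell with the loaded device (median -0.14), and 6 rose and 27 fell with the empty one (-0.18). The 8 that rose with the load are a share near that of all tested genes. Acad9, a complex I assembly factor, averaged 136, 147 and 171 CPM in loaded, empty and untreated lesions, and Ndufaf4 21.5, 17.9 and 27.6 CPM. Of 44 tested proteins of the mitochondrial ribosome, which translates the 13 mitochondrial genes, 5 rose and 22 fell with the load, and 3 rose and 30 fell with the empty device. Loaded against empty, 27 of the 44 were higher and none lower, where 22.9% of all tested genes were higher and 18.5% lower. Mrpl32 averaged 27.9, 24.1 and 40.5 CPM.

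Genes for transcription, RNA handling and replication of the mitochondrial chromosome went both ways with the loaded device. Of 24 tested, 9 rose and 9 fell with the load (median 0.006), where 19.0% and 23.3% of all tested genes did. With the empty device 3 rose and 13 fell, where 20.2% and 28.1% of all tested genes did. Their summed level was 767.4 to 772.2 CPM in loaded, 669.4 to 690.7 CPM in empty and 776.9 to 817.5 CPM in untreated libraries. Loaded against empty, 17 of the 24 were higher and 1 lower (median 0.19), where 22.9% and 18.5% of all tested genes were. Tfam, which packs and helps transcribe the mitochondrial DNA, averaged 34.6, 29.2 and 30.2 CPM in loaded, empty and untreated lesions and rose with the load (0.195, edgeR adjusted p = 1.29e-04). Polrmt, its RNA polymerase, averaged 35.03, 32.5 and 29.7 CPM and rose with both devices (0.24 and 0.13). Trmt10c, which helps cut transfer RNAs from the precursor, averaged 21.7, 16.5 and 27.5 CPM and fell with both (-0.34 and -0.74). Pnpt1, an RNA-degrading enzyme of mitochondria, averaged 38.8, 29.1 and 44.9 CPM and fell with both (-0.21 and -0.62). Tfam and Polrmt were chosen after their values were seen.

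Of 16 regulators of mitochondrial biogenesis, 4 rose and none fell with the load, and 8 rose and 4 fell with the empty device. With the load 19.0% of all tested genes rose and 23.3% fell, and with the empty device 20.2% rose and 28.1% fell. The 4 regulators that rose with the load and the 4 that fell with the empty device are shares near these. Gabpb1, a subunit of the GABP factor, averaged 40.8, 38.7 and 36.0 CPM, and Esrra, a nuclear receptor acting on these genes, 64.4, 75.7 and 62.4 CPM. In the citric acid cycle, 10 of 18 fell with each device, while 1 rose with the loaded and 3 with the empty one. Dld, a subunit shared by several dehydrogenase complexes, averaged 98.0, 92.1 and 139 CPM. Glycolysis followed another order. Of 20 genes, 15 fell and none rose with the load, and 11 rose and 5 fell with the empty device. Loaded against empty, 19 of 20 were lower (median -0.35), against 18.5% of all tested genes. The mitochondrial respiratory genes were mostly higher in that comparison. Hk2, which phosphorylates glucose, averaged 94.5, 132 and 112 CPM, and Tpi1 301, 381 and 525 CPM. Eno3 of this list is also a muscle marker.

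Markers of other cell types moved with the groups too, and their part in the results was not tested. Their counts stand beside 19.0% of all tested genes that rose and 23.3% that fell with the load. With the empty device 20.2% of all tested genes rose and 28.1% fell. Hair matrix and shaft markers rose in 14 of 14 genes with the load and fell in 13 of 14 with the empty device (summed level 37230.3 to 40100.7, 21300.0 to 24124 and 32228 to 33289 CPM in loaded, empty and untreated libraries). Of 11 tested keratinocyte markers, 1 rose and 8 fell with the load, and 4 rose and 5 fell with the empty device (median -0.07). Their summed level was 34195 to 36016, 53157 to 54273 and 46333 to 47777 CPM. White adipocyte markers rose in 7 of 12 with the load, none falling, and 9 fell and 3 rose with the empty device. In their summed level (2082 to 2179, 1917 to 2190.1 and 1972 to 2042 CPM) the range of the empty libraries held those of both other groups. Fibroblast markers fell in 8 of 10 and 7 of 10 (1506 to 1564, 1731 to 1842 and 2307 to 2442 CPM), and 2 rose with the empty device. Macrophage markers fell in 8 of 9 and 7 of 9, and 2 rose with the empty device. Both of these rises are shares near that of all tested genes. The summed level of the macrophage markers was 333 to 345, 417 to 427 and 413 to 428 CPM, so empty and untreated libraries overlapped. T cell markers fell in 8 of 10 and 6 of 10 at low levels (29.7 to 31.2, 35.3 to 38.4 and 45.3 to 50.6 CPM), with Cd8a, Cd8b1 and Trac under 1 CPM. Of 11 tested brown adipocyte markers, which include the members Cox7a1 and Cox8b, 1 rose and 5 fell with the load, and 2 rose and 2 fell with the empty device. The 2 that rose with the empty device are a share near that of all tested genes. The summed level of the brown adipocyte markers was 88.1 to 90.6, 79.0 to 84.2 and 101 to 112 CPM. Elovl3, a fatty acid elongase, made up the largest part (46.6, 33.4 and 55.3 CPM) and fell with both devices (-0.25 and -0.725), while Ucp1, Cpt1b, Lhx8 and Otop1 were under 1 CPM.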

How the data were processed

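The 9 libraries of polyadenylated skin RNA were prepared with IDT's xGen kit after miRNeasy extraction, per the labels. HISAT2, featureCounts and the mm39 build appear in the submitters' processing notes, without versions or a strand setting. The authors deposited unnormalized counts per gene, 85962714 to 96740589 in a library. Introns are included, since 99.9% of gene lengths equal the whole span.

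Groups come from the sample titles. After filterByExpr (count minimum 10, total minimum 15) the counts were scaled with TMM and fitted in 1 robust quasi-likelihood model over all 9 libraries (edgeR 4.0.16, limma 3.58.1, R 4.3.3), tested on simulated data. The Benjamini-Hochberg adjustment ran over 26081 genes, with calls under 0.05. SE is taken from the F statistic. The common biological coefficient of variation was 0.039, and tested genes held 99.96% of counts. Copies were sought with BLAST 2.17.0.

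Members and lists were chosen with earlier results of these data known. Genes are named by rule: all mitochondrial members, complex II, isoform pairs, Ndufa4, the 2 smallest p per complex and comparison, the 3 highest and 3 lowest fold changes and the 2 smallest p per pathway list. Others, Ndufa8, Ndufs7, Ndufa7, Atp5l, the pseudogene rows and the single marker genes among them, were named after their values were seen. Alternatives were other scalings, filters and tests (DESeq2 1.42.0), only the groups compared, a replicate block, a muscle covariate, leaving out each library and, chosen after seeing the data, only members sharing under 10% of their span.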

Additional observations from a re-analysis of the deposited data

How the results depend on the processing

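Against untreated lesions, the numbers of members that fell stayed within 1.5 times under all alternatives, and so did the numbers of mitochondrial genes that fell. With library size alone, the mitochondrial medians were -0.235 (loaded) and -0.447 (empty), the nuclear medians -0.21 and -0.27, and 13 nuclear genes rose with the load. That scaling moved the median of all tested genes to 0.118 (loaded) and 0.088 (empty), and 68.1% of all calls were then higher, against 44.9% (loaded), and 57.9%, against 41.7% (empty). It turned Atp5b to 0.041 and Atp5d to 0.002 (loaded) and Atp5d to 0.101 (empty). Upper quartile scaling gave empty medians of -0.48 (mitochondrial) and -0.304 (nuclear), with 53.0% of all calls higher, and, loaded against empty, 5 nuclear genes higher and 16 lower, with 44.4% of all calls higher, against 55.3%. With the muscle covariate, 2 nuclear genes rose with each device, the empty mitochondrial median was -0.67, and, loaded against empty, 1 mitochondrial gene was higher at a median of 0.302, no nuclear gene was higher or lower (0 each), and Sdhc turned to 0.004. Of all tested genes that covariate left 3159 higher (loaded) and 2397 higher (empty), and, loaded against empty, 732 higher and 939 lower. Loaded against empty, the nuclear numbers were 25 higher with library size alone, 6 higher and 15 lower with the stricter filter, and 26 higher with only the 2 groups compared.

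Leaving out 1 library at a time gave 3 to 5 nuclear genes that rose with the load and nuclear medians of -0.42 to -0.306 (loaded) and -0.442 to -0.304 (empty), and, loaded against empty, 6 to 27 nuclear genes higher. For mt-Nd4l, loaded against untreated, it gave -0.321 (without loaded replicate 2, where it fell) to 0.177 (without loaded replicate 3). As shares of the TMM-scaled size, the mitochondrial genes held 3.534% (loaded) and 4.681% (untreated), and the nuclear ones 0.7473% and 0.9297%. The cause of these shifts was not tested. Replicate numbers did not pair the libraries (correlation of same-numbered deviations -0.102 to 0.0579), and with the replicate block 10 and 12 mitochondrial and 65 and 62 nuclear genes fell (loaded and empty), and 7 mitochondrial genes were higher loaded against empty. Of the single-gene comparisons under alternatives, 2623 kept their call, 92 lost it, 49 gained one and 5 changed sign. Low counts limit Cox7b2 most, with 13 to 34 per library.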
